A study of Mus musculus with 29 samples.

Results

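Pou5f1, Nanog, Dppa3 and Gdf3 are the 4 genes described here, through the DNA methylation of 2 stretches of the mouse genome (build mm9): chr6:122500001-122700000, which holds Gdf3, Dppa3 and Nanog, and chr17:35635001-35655000, which holds Pou5f1. The stretches were cut into 1 kb bins, and the libraries of each group were pooled. The methylation level of a bin was its methylated reads as a percent of all reads. Reads were counted at each CpG, so 1 read over several CpGs counts several times. Of 220 bins, 139 held at least 1 measured CpG, 73 had 10 or more reads in at least 1 of the 15 groups, and 29 had them in all 15 (22 on chromosome 6 and 7 on chromosome 17). Over the autosomes, 318525 bins had 10 or more reads in at least 1 group. The 2 stretches held 538 CpGs with a read in any library, 423 on chromosome 6 and 115 on chromosome 17. Only 146 of the 538 were read in all 29 libraries. A single library covered 225 to 371 of these CpGs, with 1149 to 4434 reads.

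Pou5f1 encodes Oct4, a transcription factor that pluripotent cells need, and Nanog encodes a second factor of the same network. Dppa3 (Stella) is a maternal and germ-line protein with a role in DNA methylation in the oocyte and early embryo, and Gdf3 is a secreted ligand of the TGF-beta family made by pluripotent cells. Methylation of CpGs at a promoter is generally linked with silencing, and somatic cells are known to methylate the Pou5f1 and Nanog promoters. Expression was not measured here, so the labelled cell types could not be checked against marker transcripts.

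The libraries were made by reduced representation bisulfite sequencing, which reads CpG-rich fragments cut by a restriction enzyme. Male embryonic stem cells of 3 lines (J-34, J-35, J-37) left passage 4 either for S/L, a medium of serum plus LIF, or for 2i/L. They stayed there for 6 passages (p10) or 16 passages (p20), with 1 library per line in each of these 4 groups. In 2i, PD blocks Mek1/2 and CHIR blocks GSK3. Cells held in 2i/L for 16 passages were also returned to S/L for 3 passages (p23, 3 libraries, 1 per line) or 10 passages (p30, 2 libraries). One p30 library is titled J-35 but described as J-34, so its line is not known. a2i/L and PKCi/L, media whose contents the labels do not give, had 1 library each at p10 (J-34 for a2i/L, J-35 for PKCi/L) and 2 each at p20 (J-34 and J-35). J-34 cells given CHIR or PD for 6 passages had 1 library each. The Mek1/2 double knockout was 1 library of male induced pluripotent cells. They came from Mek1fl/fl;Mek2-/- embryonic fibroblasts carrying lentiviral M2rtTA and a doxycycline-inducible Oct4, Klf4, Sox2 and c-Myc cassette. A clone was picked, Mek1 was deleted with Cre, and the cells were kept in S/L on irradiated fibroblast feeders. Whether feeder DNA added reads was not tested. The somatic cells were neonatal keratinocytes from skin, grown on flasks coated with medium from a rat epithelial line. One library was wild-type and female, and 2 were male and labelled 2i/L keratinocytes. How those cells relate to 2i/L stem cells is not given in the labels, nor whether the 2 came from separate animals. Where that is not stated, a p-value measures only the spread between the libraries.

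The libraries held 8359802 to 22433006 reads on 1305420 to 1952838 CpGs. They fell into sets by which CpGs they covered. The 3 keratinocyte libraries and the 6 of a2i/L p20, PKCi/L p20 and p30 shared 71.1 to 79.7% of CpGs with each other, and 58.3 to 71.3% with the remaining 20 stem cell libraries. Because the S/L and 2i/L libraries lay in another set than the keratinocytes, each keratinocyte comparison is also given against the 3 stem cell groups of their own set. A level between 0 and 100% cannot tell a share of fully methylated cells from partial methylation in every cell.

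RefSeq promoter windows, from 250 bases before to 50 bases after a start, are shown for Pou5f1 and Nanog because their CpG content decides what could be read. Both are from GRCm38.p6, plus strand, 5′ to 3′. In the Pou5f1 window, the capitals mark the 5 of 11 CpGs that matched CpGs measured in these libraries. In the Nanog window, the capitals mark its 4 CpGs, for which no place on mm9 could be settled.
Pou5f1: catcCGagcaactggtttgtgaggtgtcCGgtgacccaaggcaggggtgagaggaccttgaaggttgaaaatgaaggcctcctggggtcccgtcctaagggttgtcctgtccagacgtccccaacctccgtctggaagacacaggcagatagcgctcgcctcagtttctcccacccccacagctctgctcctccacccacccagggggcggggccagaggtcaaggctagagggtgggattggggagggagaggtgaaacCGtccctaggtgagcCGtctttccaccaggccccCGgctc
Nanog: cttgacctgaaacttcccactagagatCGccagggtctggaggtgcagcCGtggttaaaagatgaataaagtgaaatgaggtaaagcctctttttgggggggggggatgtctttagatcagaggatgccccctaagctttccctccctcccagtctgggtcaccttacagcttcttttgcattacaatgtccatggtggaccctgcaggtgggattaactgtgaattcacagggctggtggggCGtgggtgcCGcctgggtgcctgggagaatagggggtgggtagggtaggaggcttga
The letters CCGG, the cut site of the enzyme commonly used in this method, occur 2 times in the Pou5f1 window and 0 times in the Nanog window (the motif reads the same on both strands). Of 31396 autosomal promoter windows of the same length, 53.5% contain it. The spacing of its CpGs placed the Pou5f1 window at chr17:35642727-35643026 on mm9. Within the chromosome 17 stretch, the only part searched, the 5 matched CpGs stood against 2 at the next best place. No measured CpG at the chosen place broke the pattern. The start lies at position 35642977. The table used had no windows for Gdf3 or Dppa3, and neither Nanog window reached more than 2 matches. The chromosome 6 bins are therefore named by position only and are not assigned to one of the 3 genes. In RefSeq's gene order on GRCm38.p6, the protein-coding genes run Apobec1, Gdf3, Dppa3, Nanog, Slc2a3.

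The Pou5f1 promoter window was unmethylated in every stem cell group and methylated in the keratinocytes, where mostly CpGs just after the start were read. Its window gave 7 methylated reads of 1162 in the 26 stem cell libraries, 0.602% (95% Wilson interval 0.292 to 1.24%), and 43 of 54 reads in the 3 keratinocyte libraries, 79.6% (67.1 to 88.2%). Such intervals cover counting error only, since the reads carry no molecular identifiers. They treat each CpG of a read as a separate count, so they are too narrow where reads span several CpGs. No methylated read was seen in the 3 S/L p10 libraries (32, 22 and 26 reads), the 3 S/L p20 libraries (41, 39 and 65), the 3 at 2i/L p10 (31, 23 and 28) or the 3 at 2i/L p20 (54, 63 and 50). At such read numbers a low level could not be seen in a single library. The highest stem cell library, of returned p23 cells, had 2 of 66 reads methylated (3.03%). The 2i/L keratinocyte libraries stood at 77.3% (22 reads) and 75.0% (16 reads), and the wild-type library at 87.5% (16 reads). At the CpG at +44 lay 17 reads of 2i/L and 5 of wild-type keratinocytes, and at +49 lay 14 and 4. Before the start, the CpG at -222 had 1 and 4 reads and that at -246 had 0 and 1. The CpG at +49, whose C is the last base of the window, is counted here but not in capitals above. Without it, 2i/L keratinocytes read 75% (24 reads) and wild-type keratinocytes 91.7% (12 reads). The stem cell and keratinocyte libraries did not overlap. RefSeq promoter windows elsewhere were placed by the same match of 5 or more CpGs, but searched over a wider range. Windows with fewer measured CpGs are not among them, so this background leans to CpG-rich promoters. Of 8783 such windows, 2.14% were 20 points or more higher in 2i/L keratinocytes than in S/L p10. The share was 2.13% over p30, and 2.09% for wild-type keratinocytes over S/L p10. The bin before the start, chr17:35642001-35643000, had under 10 reads in both keratinocyte groups and was not tested.

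**Figure D1:**
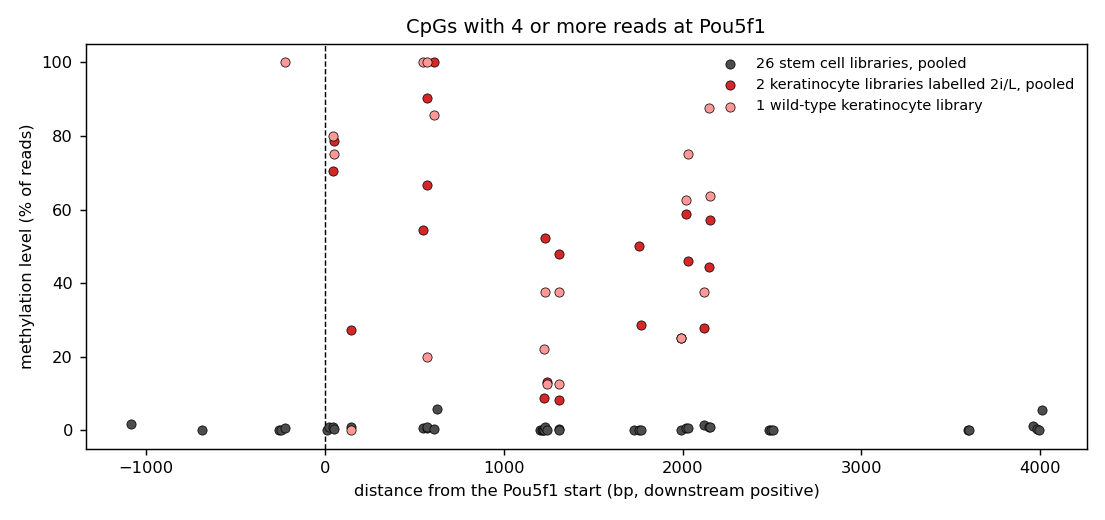
Methylation level of single CpGs (vertical axis, percent of reads) against distance from the Pou5f1 start (horizontal axis, bp). Each point is a CpG with 4 or more reads, pooled over 26 stem cell libraries (grey), 2 libraries of 2i/L keratinocytes (red) or in 1 wild-type keratinocyte library (pink). The grey points stay near 0 along the region, and the red and pink points spread from 0 to 100%.

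The first 3 kb downstream of the Pou5f1 start differed in the same direction. In the bin chr17:35643001-35644000, the 3 S/L p10 libraries read 1.02% ± 1.00 (SD, n = 3) and the 2i/L keratinocyte libraries 69.0% ± 3.4 (SD, n = 2). The keratinocyte values were 66.7% and 71.4%, and the S/L p10 values 2.00%, 0% and 1.06%. The difference of 68.0 points passed limma's test across all autosomal bins (adjusted p = 5.44e-07), and the wild-type keratinocyte library read 71.4%. The next bin, chr17:35644001-35645000, rose from 0.585% ± 0.507 (n = 3) in S/L p10 to 30.8% ± 3.6 (n = 2, limma adjusted p = 6.45e-06). It read 30.4% in wild-type keratinocytes. The bin chr17:35645001-35646000 stood at 1.67% ± 2.9 (n = 3) for S/L p10, against 43.1% ± 9.8 (n = 2) for keratinocytes of 2i/L (limma adjusted p = 4.73e-05), with 61.8% in the wild-type library. In these 3 bins no pooled stem cell group exceeded 4.40%, the value of the CHIR library in the first of them.

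Single CpGs differed within this stretch. In the 2i/L keratinocytes, the CpG at +1224 was methylated in 2 of 23 reads (8.70%, Wilson interval 2.42 to 26.8%) and the one at +1233 in 12 of 23 (52.2%, 33.0 to 70.8%). The CpGs at +1309 and +1312 had 11 of 23 reads (47.8%, 29.2 to 67.0%) and 2 of 24 (8.33%, 2.32 to 25.8%). The wild-type library had 22.2% and 37.5% at the first pair (9 and 8 reads) and 37.5% and 12.5% at the second (8 reads each). Over the 18 CpGs with 4 or more reads in both kinds of keratinocyte, from +44 to +2156, Pearson's r between their levels was 0.73 and Spearman's rho 0.67. These points share a locus and a method, and neighbouring CpGs share reads. The same 18 CpGs lay between 0 and 1.45% in the pooled stem cell libraries.

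Further along chromosome 17, the promoters of Tcf19, which encodes a cell cycle-linked transcription factor, and of Cchcr1 could also be placed (27 CpGs matched each, 3 at the next best place). Their 2 bins, chr17:35653001-35654000 and chr17:35654001-35655000, read 0 to 1.53% in all 15 groups, keratinocytes included. Per library, the 46 CpGs of these bins gave 1.75%, 1.02% and 0.481% in the 3 keratinocyte libraries and 0 to 1.30% in the 26 stem cell libraries. In the same keratinocyte libraries, these bins and those at Pou5f1 thus lay far apart.

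One chromosome 17 bin was already partly methylated in stem cells. The bin chr17:35651001-35652000 read 39.6%, 29.5% and 29.4% in S/L p10 libraries and 4.92%, 7.35% and 2.22% in those of 2i/L p10 (limma adjusted p = 4.47e-05). These did not overlap, and 77.4% of autosomal bins tested were likewise lower in every 2i/L p10 library. At p20 the S/L libraries read 17.3%, 8.41% and 11.4% and the 2i/L libraries 8.43%, 7.14% and 3.23%, which overlapped (limma adjusted p = 0.129). After return to S/L it read 27.3%, 39.7% and 30.4% at p23 and 37.8% and 57.0% at p30. The keratinocytes read 75.0% and 64.8% (2i/L) and 62.5% (wild-type). By pooled reads, the next bin, chr17:35652001-35653000, stood at 9.68% in S/L p10, 13.3% in 2i/L keratinocytes and 30% in wild-type keratinocytes.

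**Figure D2:**
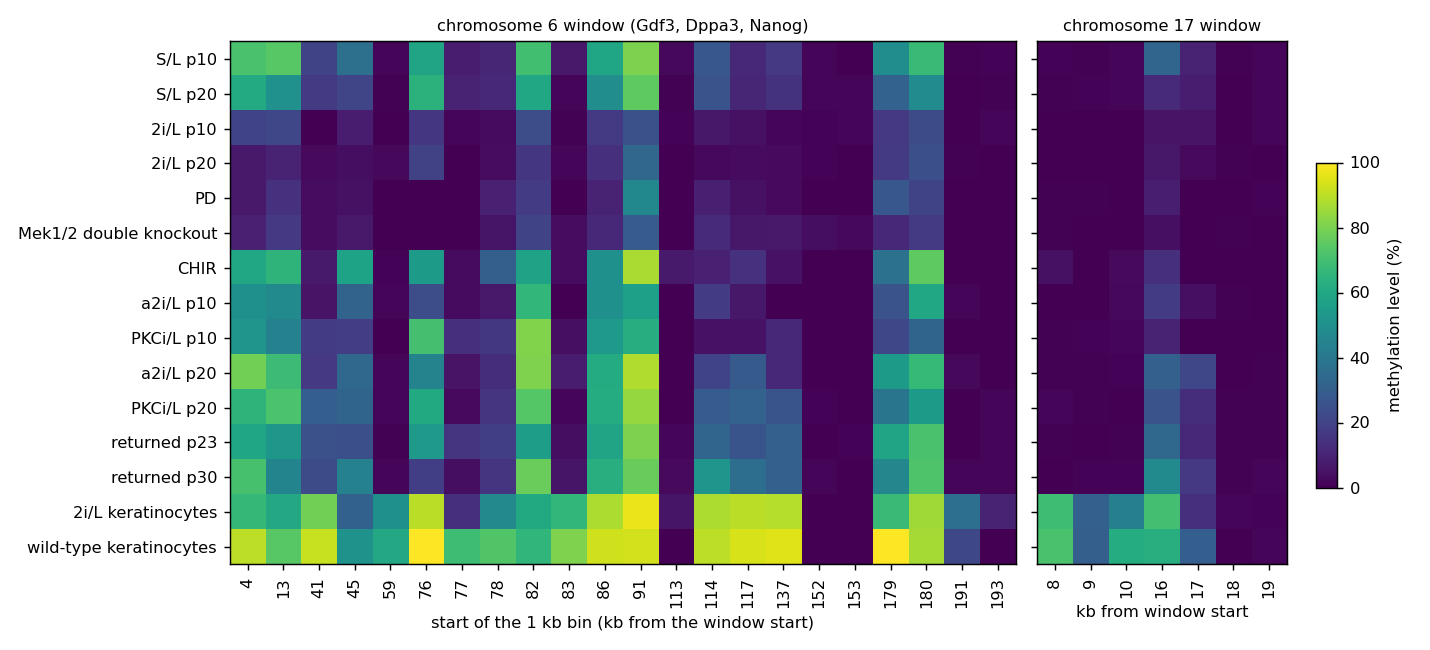
Pooled methylation level (colour, 0 to 100%) of the 29 bins with 10 or more reads in all 15 groups. Rows are groups and columns are bins, named by kb from the start of each stretch, with 22 bins on chromosome 6 (left) and 7 on chromosome 17 (right). The 2i/L, PD and Mek1/2 double knockout rows are darker than the S/L rows in the bins that S/L cells methylate, and the 2 keratinocyte rows are bright in several bins that are dark in every stem cell row.

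On chromosome 6, the stretch of Gdf3, Dppa3 and Nanog held bins of several kinds. Of its 22 bins read in every group, 11 were under 20% in S/L p10, 4 were at 20 to 50% and 7 at 50% or more. Over the 22 bins the median level was 18.6% in S/L p10, 3.85% in 2i/L p10, 63.4% in 2i/L keratinocytes and 77.4% in wild-type keratinocytes. The medians over the 110157 autosomal bins read in every group were 73.5%, 21.8%, 74.3% and 73.1%. The chromosome 6 bins thus stood lower than the autosomal median in S/L p10 and 2i/L p10. In keratinocytes they lay closer to it, below it for 2i/L and above it for the wild-type library.

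Some bins were unmethylated in stem cells and methylated in keratinocytes, as at Pou5f1. One was chr6:122559001-122560000, with 14 CpGs, where the S/L p10 libraries read 0%, 2.70% and 1.09% and the S/L p20 libraries 1.46%, 0% and 0%. The 2i/L keratinocytes read 53.5% and 43.2%, and the wild-type library 60.5%. The difference from S/L p10 was 47.1 points (limma adjusted p = 4.09e-06), and no stem cell library exceeded 5.88%, a 2i/L p20 library. The bin chr6:122583001-122584000 went from 2.94%, 9.09% and 7.32% in S/L p10 to 63.0% and 68.4% in 2i/L keratinocytes and 80.8% in the wild-type library. By pooled reads, chr6:122556001-122557000 stood at 95.2% (21 reads) in 2i/L keratinocytes and at 0 to 9.52% in the 12 stem cell groups with 10 or more reads there. The bin chr6:122691001-122692000 read 0%, 1.11% and 0% in S/L p10, and 46.9% and 20.9% in 2i/L keratinocytes, with 21.7% in the wild-type library, so here the keratinocyte libraries themselves were far apart.

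Other bins were low rather than empty in S/L p10. Pooled stem cell groups ran from 2.99% (2i/L p20) to 36.2% (p30) at chr6:122617001-122618000. At chr6:122614001-122615000 they ran from 2.22% (2i/L p20) to 52.3% (p30). The bin chr6:122617001-122618000 read 20.6%, 12.8% and 2.44% in S/L p10, against 2.00%, 11.1% and 0% for 2i/L p10. It read 91.1% and 87.5% in 2i/L keratinocytes and 93.8% in the wild-type library. That was the widest gap to S/L p10 among the 27 tested bins of the 2 stretches, 77.3 points (limma adjusted p = 9.37e-06). The second widest was chr6:122637001-122638000, at 16.1% ± 8.7 (SD, n = 3) in S/L p10 against 71.4% and 100% in 2i/L keratinocytes (69.6 points, limma adjusted p = 0.000153). It read 95% in the wild-type library. The bins chr6:122541001-122542000 and chr6:122578001-122579000 had pooled levels of 20.7% and 10.6% for S/L p10, 78.6% and 47.1% for 2i/L keratinocytes, and 91.5% and 72.7% in wild-type keratinocytes. The bin chr6:122614001-122615000 went from 27.3% (S/L p10) to 87.5% (keratinocytes of 2i/L). The bin chr6:122577001-122578000 read 15.6% (32 reads) and 10% (20 reads) in the 2i/L keratinocytes and 68.8% in the wild-type library, on 16 reads (Wilson interval 44.4 to 85.8%). With 1 wild-type library, also the only female one, this was not tested. S/L p10 stood at 8%.

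On chromosome 6, 4 bins stayed near 0 in most groups. The bins chr6:122613001-122614000, chr6:122652001-122653000, chr6:122653001-122654000 and chr6:122693001-122694000 read 0 to 9.52% in all 15 groups. The highest of these values was that of 2i/L keratinocytes in the last of the 4, and wild-type keratinocytes read 0% in all 4. Unmethylated bins in stem cells were thus of both kinds, those methylated in keratinocytes and those not. By pooled reads, several methylated bins stood lower in 2i/L keratinocytes than in S/L p10. The levels were 60.2% and 73.9% at chr6:122513001-122514000, 60.7% and 69.6% at chr6:122582001-122583000, and 66.7% and 83.6% at chr6:122502001-122503000. At chr6:122545001-122546000 they were 31.0% and 36.8%, with 51.4% in wild-type keratinocytes. The bin chr6:122586001-122587000 rose from 58.8% to 87.5%, with 92.9% in wild-type keratinocytes.

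**Figure D3:**
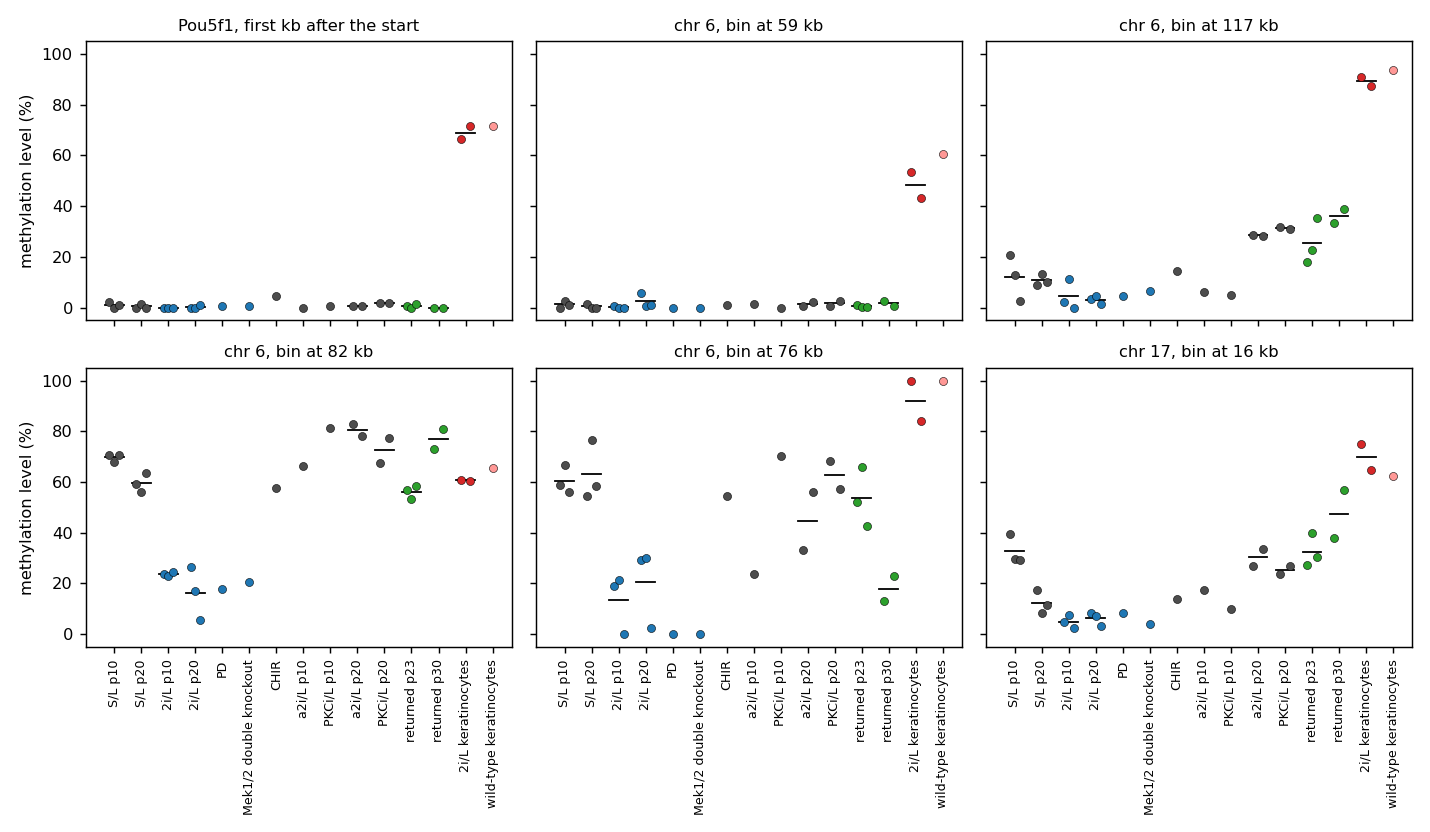
Methylation level (vertical axis, percent of reads) of 6 bins in each of the 29 libraries, by group (horizontal axis). Points are libraries and lines are group means where a group has 2 or more libraries. Blue marks 2i/L, PD and the Mek1/2 double knockout, green returned cells, red and pink keratinocytes, grey the other stem cell groups. In the bin at Pou5f1 and the chromosome 6 bin at 59 kb the keratinocytes stand apart from every stem cell library. In the bins at 82 and 76 kb the blue groups are low, joined at 76 kb by the a2i/L p10 library at 23.8% and the p30 libraries at 12.9% and 23.1%.

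Counted over both stretches, 14 of the 27 bins tested were called higher in 2i/L keratinocytes than in S/L p10, and 0 lower. To be called, a bin had to pass an adjusted p of 0.05 and differ by at least 20 points. The background over all 112784 autosomal bins tested was 12.8% called higher and 10.7% lower. Bins of the 2 stretches mostly stood below the autosomal median in S/L p10, with less room to fall and more to rise. The background thus differs in starting level. At an unadjusted limma p under 0.05, 0 of the 27 were lower. Against S/L p20, 17 of 29 were called higher (background 20.2%) and 0 lower (8.29%), with the widest gap again at chr6:122617001-122618000 (89.3% ± 2.5 against 10.8% ± 2.3). Against 2i/L p20, 23 of 29 were called higher, beside a background of 67.1%, a share near that of all bins, and 0 lower (0.686%). The wild-type library was not part of these fits, and adding it gave 14, 16 and 22. Bins then also needed 10 or more reads in that library, which 32 bins of the stretches had. Fewer bins were thus tested, and the shares over all autosomal bins are not given here.

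Against stem cells of their own coverage set, the keratinocytes were called higher in 12 of 30 bins over returned p30 (background 10.7%), 14 of 30 over a2i/L p20 (10.3%) and 14 of 30 over PKCi/L p20 (10.7%). None of the 30 was called lower in any of the 3, beside backgrounds of 8.58%, 10.2% and 10.9%, and at an unadjusted limma p under 0.05 the lower bins numbered 0, 2 and 0. These comparisons share the keratinocyte libraries and were chosen after the coverage sets had been seen. The bin after the Pou5f1 start, chr17:35643001-35644000, was at 0% in both p30 libraries, 0.631% ± 0.008 for a2i/L p20 and 1.70% ± 0.07 for PKCi/L p20. Its gaps to 69.0% ± 3.4 in the keratinocytes were 69.0, 68.4 and 67.3 points (limma adjusted p = 1.5e-05, 1.22e-05 and 3.78e-06, 2 libraries a side). The other wide gaps were at chr6:122576001-122577000 over p30 (74.0 points), chr6:122637001-122638000 over a2i/L p20 (74.3 points) and chr6:122583001-122584000 over PKCi/L p20 (63.7 points). With 2 libraries a side, leaving 1 out leaves a lone library in a group. The counts then fell in all 3 comparisons, whichever library was left out. Whether calls fell alike over all autosomal bins is not given here. The falls can therefore not be read as particular to these loci.

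By pooled reads, 21 bins were under 20% in S/L p10 and had 10 or more reads in 2i/L keratinocytes, and 12 of them (57.1%) were 20 points or more higher there, against 17.8% of 36878 such autosomal bins. For wild-type keratinocytes the counts were 12 of 18 (66.7%), against 15.7%. Counted from returned p30, of the same coverage set, they were 11 of 20 (55.0%, background 14.6%) and 9 of 17 (52.9%, background 12.7%). Among stem cell groups, 1 of 23 bins rose this way from S/L p10 to p30 (4.35%, background 4.32%). In each of the other stem cell groups it was 0 of 19 to 23 bins. Their backgrounds were 0.28% for S/L p20, 0.0599% and 0.0257% in 2i/L p10 and p20, 0.0547% with PD, 0.712% with CHIR and 0.0228% in the knockout. For a2i/L they were 0.376% at p10 and 2.93% at p20, for PKCi/L 0.835% and 2.93%, and for p23 1.62%.

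Between stem cell media, several chromosome 6 bins methylated in S/L read far lower in 2i/L, to different extents. By pooled reads at p10, chr6:122500001-122501000 stood at 85.2% with S/L and 46.5% with 2i/L. At p10, 15 of 32 tested bins of both stretches were called lower in 2i/L than in S/L (background 69.0%) and 0 higher (0.00163%). With at least 20 reads per library, which fewer bins reach, the count was 9. The share called was below that of all bins, and bins near 0 in S/L cannot be called lower by 20 points. The widest gap was at chr6:122591001-122592000, which read 90.6%, 67.9% and 87.8% in S/L and 23.5%, 25.0% and 27.3% in 2i/L (-56.9 points, limma adjusted p = 1.56e-05). The bin chr6:122502001-122503000 read 83.3%, 85.3% and 80% against 26.3%, 28.0% and 36.0% (-52.8 points, limma adjusted p = 1.53e-05). The third was chr6:122513001-122514000, at 74.4% ± 7.9 against 23.4% ± 10.1 (n = 3 each, limma adjusted p = 4.23e-05). In chr6:122582001-122583000, the S/L p10 libraries read 70.8%, 67.8% and 70.5% and the 2i/L p10 libraries 23.6%, 23.1% and 24.5%, an almost even drop in the 3 lines. The groups did not overlap in any of these 4 bins. Of all autosomal bins tested, 77.4% were likewise lower in every 2i/L p10 library.

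At p20, 15 of 43 bins were called lower in 2i/L (background 69.2%) and 0 higher (0.00503%). A fit on all replicated groups called 6. It took only bins with 10 or more reads in every library of those groups. The bins chr6:122502001-122503000 and chr6:122504001-122505000 were therefore not in it. The bin chr6:122502001-122503000 again had the widest gap (82.2% ± 12.1 in S/L, 20.5% ± 14.5 in 2i/L, n = 3 each, limma adjusted p = 1.55e-05). Next came chr6:122504001-122505000 (60.4% ± 6.7 and 5.13% ± 8.88, adjusted p = 4.66e-06) and chr6:122522001-122523000 (77.5% ± 10.0 and 28.0% ± 8.4, adjusted p = 0.000276). Of 15 bins of both stretches pooled at 50% or more in S/L p20, 0 remained at 50% or more in 2i/L p20, against 9.35% of such autosomal bins. The third 2i/L p20 library, of line J-37, was the lowest of the group in several bins (4.76% at chr6:122502001-122503000, 2.38% at chr6:122513001-122514000 and 5.43% at chr6:122582001-122583000). A test of whether the 2i/L effect differed between p20 and p10 called 0 of 32 bins and 0 of 120151 over the autosomes (limma), with 4 of the 32 at an unadjusted p under 0.05.

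The Mek1/2 inhibitor alone and the double knockout, each 1 library and so without a test, had levels close to those of 2i/L. Their share of methylated reads over the 104 chromosome 6 CpGs read in all libraries was 8.91% with PD and 9.08% in the knockout. The same share was 9.20% ± 0.74 (SD, n = 3) in 2i/L p10, 8.20% ± 2.53 (n = 3) in 2i/L p20, 32.1% ± 2.2 (n = 3) in S/L p10 and 24.4% ± 0.9 (n = 3) in S/L p20. The CHIR library stood at 30.2%, just under the 30.5 to 34.6% of the 3 S/L p10 libraries. a2i/L p10 and PKCi/L p10 had 22.8% and 23.5%. The p20 libraries of these media had 32.9% ± 3.0 and 29.7% ± 0.03 (n = 2 each), and the keratinocytes 58.4% ± 3.6 (n = 2) and 68.6%.

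**Figure D4:**
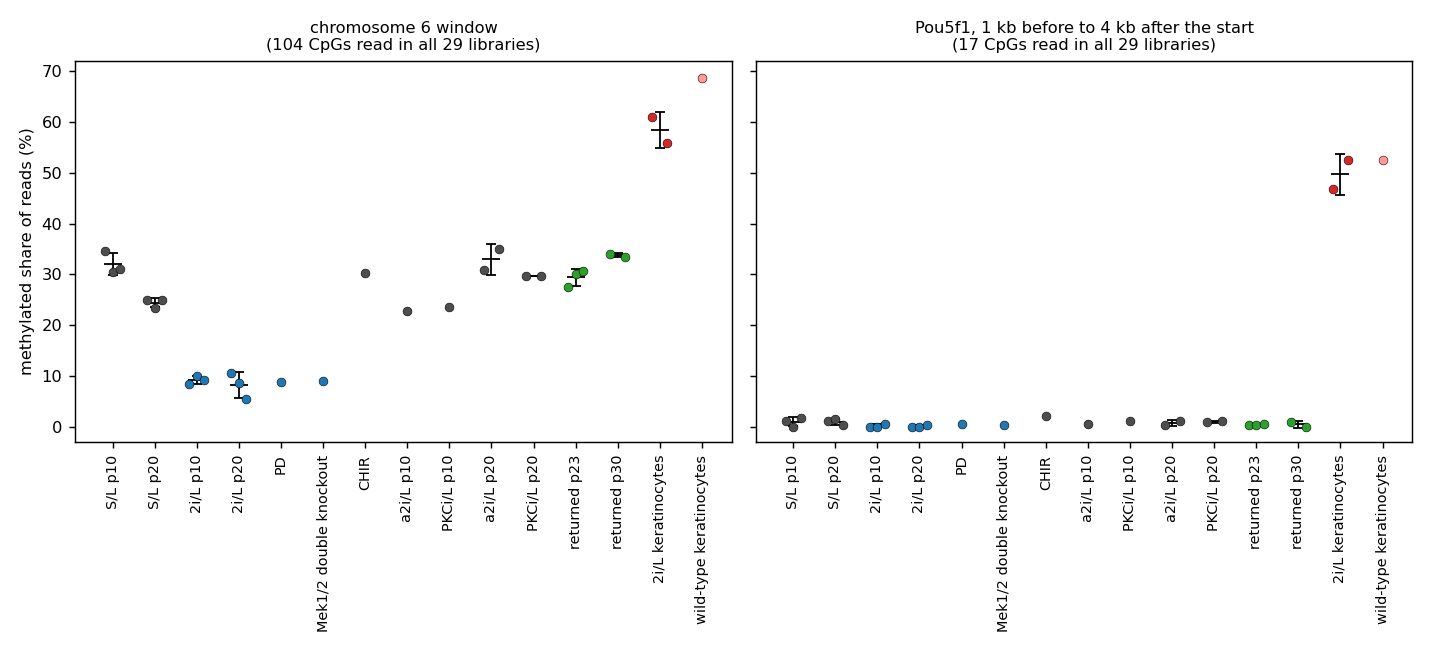
Share of methylated reads (vertical axis, percent) in each of 29 libraries, by group (horizontal axis), over the 104 CpGs of the chromosome 6 stretch (left) and the 17 CpGs around Pou5f1 (right) that were read in all libraries. Bars are means ± SD where a group has 2 or more libraries. On the left, 2i/L, PD and the knockout sit at 5.5 to 10.5% and the keratinocytes above 55%, while on the right all 26 stem cell libraries stay at or below 2.07%.

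Around Pou5f1, from 1 kb before to 4 kb after the start, all stem cell media gave low levels. The share over the 17 CpGs read in all libraries was 0.967% ± 0.876 (n = 3) in S/L p10, 0.168% ± 0.290 (n = 3) in 2i/L p10, 0.985% ± 0.637 (n = 3) with S/L at p20 and 0.137% ± 0.238 (n = 3) with 2i/L at p20. The 2i/L means were lower at both passages, without passing an exact two-sided permutation test (p = 0.4 at p10 and p = 0.2 at p20, where 3 against 3 cannot go below 0.1). Over all 40 CpGs read there, the p20 means were 0.86% ± 0.38 in S/L and 0.107% ± 0.185 in 2i/L (n = 3 each), with no overlap and an exact permutation p = 0.1. The keratinocytes had 49.7% ± 4.1 (n = 2) and 52.6%.

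Return to S/L brought the chromosome 6 bins back up within 3 passages. At p23, 22 of 45 bins were called higher than in 2i/L p20 (background 74.9%) and 0 lower (0.000604%). A fit on all replicated groups called 12. This comparison and that of 2i/L p20 with S/L p20 share the 2i/L p20 libraries. The 3 widest gaps were at chr6:122502001-122503000 (80.8% ± 4.3), chr6:122504001-122505000 (61.8% ± 19.2) and chr6:122522001-122523000 (83.7% ± 16.8, n = 3 each). The shares over the 104 CpGs were 27.4 to 30.6% in the 3 p23 libraries, above the 23.5 to 25.0% of S/L p20. The 3 S/L p10 libraries stood at 30.5 to 34.6%. An exact two-sided permutation test of p23 against S/L p20 gave p = 0.1, the smallest this design allows.

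Against S/L p20, 1 of 43 bins was called higher at p23 (background 1.33%) and 0 lower (1.13%). It was chr17:35651001-35652000 (20.1 points, limma adjusted p = 0.0478). In this bin the S/L p10 libraries had read 29.4 to 39.6%, beside 27.3 to 39.7% at p23. Pairing the libraries by cell line, with the line as a replicate block, left 0 calls here, as did leaving out any one library, and with at least 20 reads per library 3 bins were called. The wider gaps at chr6:122679001-122680000 (58.3% ± 6.7 against 32.3% ± 8.1) and chr6:122680001-122681000 (71.2% ± 2.5 against 48.4% ± 6.2) missed the threshold (adjusted p = 0.0696 and 0.0698).

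At p30, 2 of 41 bins were called higher than in S/L p20 (background 4.34%) and 1 lower (0.17%). The lower one was chr6:122576001-122577000, which read 12.9% and 23.1% at p30 and 54.5%, 76.7% and 58.3% in S/L p20 (limma adjusted p = 0.0153). Its level had been 20.6% ± 15.7 in 2i/L p20 and 53.5% ± 11.8 at p23, and the p23 and p30 libraries did not overlap, a difference that was not tested. The higher ones were chr17:35651001-35652000 (47.4% ± 13.6 against 12.3% ± 4.5, adjusted p = 0.0186) and chr6:122617001-122618000 (36.1% ± 3.9 against 10.8% ± 2.3, adjusted p = 0.0278). Next in size was chr6:122614001-122615000, at 52.3% ± 3.2 against 26.4% ± 13.4, which did not pass (adjusted p = 0.131). The count fell to 2 without the first S/L p20 library, and to 0 without S/L p20 library 2 or 3 or either p30 library. S/L p20 and p30 belong to separate coverage sets, and on the CpGs read in every library compared the count was again 3. With at least 20 reads per library it was 7.

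The a2i/L cells at p20 had 2 of 38 bins called higher than S/L p20 (background 8.22%). For PKCi/L at p20 the count was 2 of 40 (7.21%). None was called lower, beside backgrounds of 0.31% and 0.123%, with 1 lower bin in each at an unadjusted limma p under 0.05. The a2i/L calls were chr6:122675001-122676000 (89.0% ± 2.1 against 60.3% ± 2.3, limma adjusted p = 0.0196) and chr6:122603001-122604000 (43.1% ± 0.3 against 15.5% ± 6.1, adjusted p = 0.0246). The PKCi/L calls were chr6:122603001-122604000 (59.2% ± 1.2, adjusted p = 0.00642) and chr6:122617001-122618000 (31.4% ± 0.5 against 10.8% ± 2.3, adjusted p = 0.031). With the cell line as a replicate block PKCi/L had 1 call, and on the CpGs read in every library compared a2i/L had 1. Leaving out any one library left 1 PKCi/L call. The a2i/L count was 1 without S/L p20 library 3 and 0 without any other library of the comparison.

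The promoters of other pluripotency genes that could be read were unmethylated in stem cells and keratinocytes alike. Of 22 such genes listed, 13 had a RefSeq promoter window and 6 windows could be placed on mm9: Sox2, Klf4, Klf2, Fgf4, Tfcp2l1 and Nr5a2. Placing a window took 5 or more matched CpGs, so CpG-poor promoters are mostly missing here. The windows of the first 5 genes held 21 to 40 CpGs, and the listed genes' windows that could not be placed held 2 to 17. Those first 5 read 0 to 1.70% in all 15 groups, keratinocytes included. For Sox2 the keratinocytes had 0 methylated reads of 176 (2i/L) and 48 (wild-type). Nr5a2 had under 10 reads in each keratinocyte group and 0 to 3.57% elsewhere.

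The autosomal bins most like chr6:122559001-122560000 over the 15 groups, by mean absolute difference of pooled level among 110128 bins, were chr1:159388001-159389000 (0.741 points), chr7:3219001-3220000 (0.755) and chr15:25294001-25295000 (0.795). Those most like chr17:35644001-35645000 were chr13:55311001-55312000 (0.496), chr6:125095001-125096000 (0.569) and chr5:118886001-118887000 (0.608).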

How the data were processed

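The deposited tables list, for each CpG, a text field of methylated over all reads (unit other: 2 whole numbers per CpG) and a score, which equals 1000 times the methylated fraction, rounded down, in every row. Alignment used BSMAP 2.89 on mm9, per the submitters' processing notes. Per the labels, 12 barcoded reactions were pooled before conversion. Other alignment settings: not given in the sources used here. The members and lists were chosen with earlier results of these data known.

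From the field, methylated and all reads were summed per 1 kb bin and library. Comparisons used limma 3.58.1 in R 4.3.3 on log2((methylated + 1)/(unmethylated + 1)), fitted to the 2 groups compared, on autosomal bins with 10 or more reads in every library of both, with Benjamini-Hochberg adjustment over all of them. Calls needed adjusted p below 0.05 with mean library levels 20 points apart. Means weight libraries equally, and pooled levels weight reads. The scripts were tested on simulated data. Named were bins read in all groups, bins with a placed start, and the 3 widest gaps of each comparison; other bins named were chosen after their values were seen. Libraries of a cell line are paired by the labels. Deviations of libraries of a line from their group means correlated at -0.0163 to 0.123 over 119811 bins. Alternatives were other read minimums, pseudocounts, CpG sets and bin edges, a fit over all groups, the line as a block, and each library left out. Python 3.11.15, scipy 1.17.1 and matplotlib 3.10.9 were used.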

Additional observations from a re-analysis of the deposited data

How the results depend on the processing

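No count of called bins reversed. Of 1156 recomputed values of bins called in the main fits, 1134 stayed called and 22 did not. With a library left out, 627 of 783 stayed called and 156 did not. These numbers leave out called bins that no longer had enough reads, bins newly called and the shifted bin edges. With 20 reads or more per library, 2i/L against S/L at p10 gave 9 bins, p23 against S/L p20 gave 3 and p30 against S/L p20 gave 7. A fit on all replicated groups gave 6 for 2i/L at p20, 12 for p23 against 2i/L p20 and 1 for PKCi/L. p23 against S/L p20 gave 0 with 5 reads, a pseudocount of 0.5, the mean over CpGs, bins shifted by 500 bases, or the replicate block by cell line. a2i/L gave 1 on CpGs covered in every library, and PKCi/L gave 1 with the mean over CpGs and 1 with the block. The read minimum, the CpG set and the fit on all replicated groups also change which bins can be tested. The cause of each change in count was not tested. The block moved no other count by over 1.5 times; it could not be fitted for p30 or keratinocytes, whose lines are not known. With 1 library left out, the counts ran from 12 to 15 (2i/L p10), 14 to 15 (2i/L p20), 21 to 23 (p23 against 2i/L p20), 0 to 0 (p23 against S/L p20), 0 to 2 (p30), 0 to 1 (a2i/L) and 1 to 1 (PKCi/L). For keratinocytes they ran from 12 to 14 (S/L p10), 15 to 17 (S/L p20), 23 to 25 (2i/L p20), 0 to 8 (p30), 0 to 10 (a2i/L) and 5 to 11 (PKCi/L). A lone library left in a group is assumed to vary like the others. The shares called over all autosomal bins are not given for these counts. Depth limits the Pou5f1 promoter in keratinocytes, at 16 to 22 reads per library, summed over CpGs that can share reads.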

Other observations

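On chromosome 6, 5 bins reached 10 reads only in groups of the keratinocytes' coverage set. The bin chr6:122590001-122591000, with 2 CpGs, read 95.7 to 98.9% in a2i/L p20, PKCi/L p20, p30 and both keratinocyte groups. The bin chr6:122696001-122697000, with 8 CpGs, read 100% in a2i/L p20, PKCi/L p20, p30 and 2i/L keratinocytes. The bin chr6:122672001-122673000 read 70.6% in a2i/L p20 and 84.6% in p30. The bins chr6:122658001-122659000 and chr6:122685001-122686000 reached 10 reads in a2i/L p20 alone, at 0% and 37.5%. Over the 22 chromosome 6 bins read in every group, Spearman's rho between the number of CpGs and the level was -0.50 for S/L p10, -0.54 for S/L p20 and -0.14 for keratinocytes of 2i/L, given as a description over bins of the same libraries.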
